A study of Mus musculus with 38 samples.

Results

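The genes described here encode 10 protein subunits of the mouse ribonucleases P and MRP: Rpp25, Pop7, Rpp21, Pop4, Rpp38, Rpp30, Rpp14, Pop5, Rpp40 and Pop1. They were found by gene symbol in the deposited table of normalized FPKM values, and all 10 were among its 23125 genes. FPKM (sequenced fragments scaled by gene length and library depth) was given for RNA from the polysome (P) and the non-polysome (NP) part of sucrose gradients. The list was selected on Rpp25, whose P values in two-cell and two-cell M embryos were known to be high. Those values of Rpp25, and its NP values in the same stages, which come from the same gradients, are therefore given as a description with no test.

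Oocytes and embryos came from wild-type ICR mice at least 6 weeks old, and the 12 groups are 6 stages by 2 fractions with 3 libraries each. All females had received PMSG, and the mothers of embryos also hCG. Germinal vesicle (GV) oocytes, arrested before meiosis resumes, were collected with IBMX, and metaphase II (MII) oocytes were GV oocytes matured in culture. Zygotes (Zyg) were recovered from the oviducts of mated females, and two-cell embryos were zygotes grown in KSOM medium. Zygotes and two-cell embryos in M-phase (zygote M and two-cell M) had been held with nocodazole, which the interphase embryos and oocytes had not received, so M-phase and nocodazole cannot be told apart. All lysates were made with cycloheximide. The upper 5 of 10 gradient fractions were pooled as NP and the heavier 5 as P, so the P and NP libraries of a replicate letter came from the same gradient. Each library holds RNA of many cells, and fewer cells and less RNA per cell cannot be told apart.

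RNase P is the enzyme that removes the 5′ leader from precursor tRNAs, and RNase MRP cuts the precursor of ribosomal RNA between the small and large subunit parts. Each is built on an RNA, Rpph1 in RNase P and Rmrp in RNase MRP, and both enzymes share most of their proteins. The GV oocyte is transcriptionally silent, and the mouse embryo makes most of its first own transcripts at the two-cell stage.

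Of the 10 genes, 9 passed the minimum for the test, which asked for 0.1 FPKM or more as the geometric mean of all 36 libraries, and Rpp40 did not. Rpp25 passed with a geometric mean of 0.425 FPKM only through its two-cell and two-cell M libraries, since 13 of its 36 values stood at the offset of 0.01 FPKM that marks an undetected gene. A gene was called when limma's adjusted p was under 0.05 and the fold change was beyond 2, and every log2 fold change below is a difference on the log2 scale of the deposited FPKM.

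Library depth, recovered from the steps between low values, was about 8490000 to 26700000 fragments with a median of 21000000, and was lowest in the NP libraries of two-cell M (8490000 to 17100000). Intervals and lower bounds given for fragments cover counting error only, as the protocol used no molecular identifiers. The stage labels were checked on marker lists. The 9 oocyte markers, among them the zona pellucida genes and Gdf9, summed to 4161 to 4454 FPKM in P of GV and to 32.8 to 184 FPKM in P of two-cell M. The 11 genes of the two-cell activation list, such as Zscan4d, summed to 448 to 768 FPKM in NP of two-cell and to 141.2 to 203.5 FPKM in NP of GV, whereas in P the sums of GV (176 to 323 FPKM) and two-cell (129 to 212 FPKM) overlapped. In two-cell M they were 10.24 to 147.5 FPKM in P, below GV, and 24.76 to 426.6 FPKM in NP, so this list does not mark the two-cell M group.

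Rpp25 is an RNA-binding protein of the Alba family that pairs with Pop7 on the RNA of both enzymes. It lies on the plus strand of chromosome 9 at chr9:57504026-57505449 (GRCm38) and has 1 exon. The part of its RefSeq promoter window that precedes the gene as the files place it, at chr9:57503852-57504025 on the plus strand of GRCm38.p6, is shown because Rpp25 is the gene whose RNA appears at the two-cell stage. Capitals mark GC boxes:
Rpp25: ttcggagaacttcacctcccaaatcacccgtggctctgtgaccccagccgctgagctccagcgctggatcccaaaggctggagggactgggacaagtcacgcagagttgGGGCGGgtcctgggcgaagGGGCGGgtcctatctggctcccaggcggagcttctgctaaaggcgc

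RefSeq windows of 300 bases, 250 before and 50 after a gene's start, were found for 8 of the 10 genes. They were searched on both strands for the TATA box TATAAA, the GC box GGGCGG, the CCAAT box CCAAT and the E box CACGTG, no one of which contains another. TATAAA was in 0 of the 8 windows and in 13.6% of 32851 windows of the whole table. GGGCGG was in 5 of 8 (35.7% of all), CCAAT in 2 of 8 (37.4%) and CACGTG in 1 of 8 (7.15%), that of Rpp38. The window of Rpp25 held 2 GC boxes and 1 CCAAT, with 63.7% G or C and 17 CpG, against a median of 52.7% and 7 CpG over all windows. These matches are descriptions of the letters and were not related to the RNA values by any test.

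In polysomes, Rpp25 stood near the offset in the oocyte and zygote stages and high in both two-cell groups. In GV it was 0.01, 0.0446 and 0.01 FPKM, and in MII 0.01, 0.01 and 0.540 FPKM. Values of a group stand in the order of replicates A, B and C throughout, or B, C and D for Zyg. In Zyg they were 0.0726, 0.0786 and 0.01 FPKM, and in zygote M 0.01, 1.94 and 0.01 FPKM. In two-cell it was 68.0, 60.5 and 68.9 FPKM, and in two-cell M 183, 201.0 and 173 FPKM. The 3 groups of values, two-cell M, two-cell and the 4 earlier stages, do not overlap, whereas the 4 earlier stages overlap each other. In fragments, 1 was counted for Rpp25 over the 3 P libraries of GV and 5663 over those of two-cell. The fitted log2 differences, 11.96 for two-cell minus GV, 12.26 for two-cell M minus MII and 1.496 for two-cell M minus two-cell, describe the values that chose the gene.

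The NP libraries of the same gradients are described in the same way. All 3 NP libraries of GV stood at 0.01 FPKM, with 0 fragments among about 68500000. In MII the values were 0.0388, 0.01 and 0.01 FPKM, in Zyg 0.0664, 0.105 and 0.0915 FPKM, and in zygote M 0.136, 0.01 and 0.0397 FPKM. In two-cell they were 89.5, 41.2 and 55.7 FPKM, and in two-cell M 34.6, 66.2 and 134 FPKM. The 6 two-cell and two-cell M libraries lay above all 12 others, and these 2 groups overlapped each other. Over the 3 libraries of a group, 0 fragments of Rpp25 were counted in NP of GV and 4860 in NP of two-cell, at least 2088-fold more by depth-scaled fragments against a floor of 3 fragments over the group. In NP of MII 1 fragment was counted and in NP of two-cell M 4673. The fitted log2 differences were 12.53 for two-cell minus GV, 12.07 for two-cell M minus MII and 0.19 for two-cell M minus two-cell, and their size depends on the offset, since with 1 FPKM added to every value the first 2 were 5.89 and 6.07. Rpp25 passed the minimum only through libraries in which it is high and so had to differ between some groups.

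**Figure D1:**
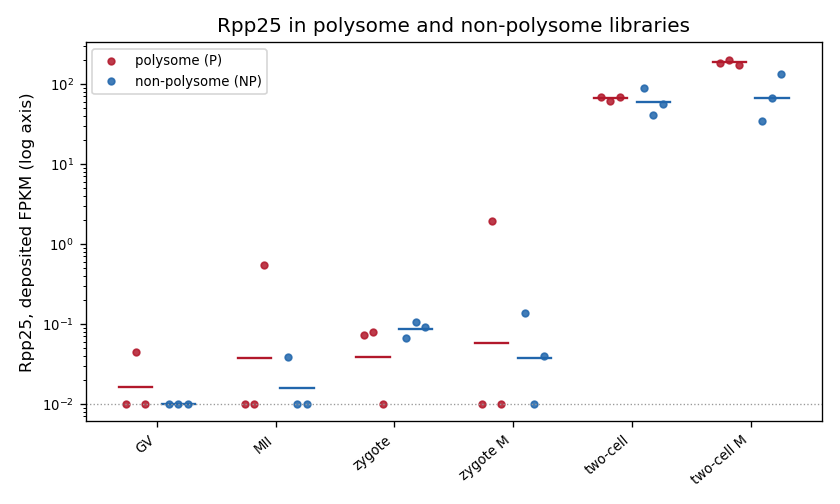
Deposited FPKM of Rpp25 on a log axis by stage, with polysome libraries in red and non-polysome libraries in blue. Points are libraries, bars are geometric means of 3 libraries, and the dotted line is the offset of 0.01 FPKM. The two-cell and two-cell M libraries lie between 34.6 and 201.0 FPKM, and all earlier libraries lie at or below 1.94 FPKM.

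The P and NP levels of Rpp25 overlapped in two-cell, at 65.8 ± 4.62 FPKM in P and 62.2 ± 24.8 FPKM in NP (mean ± SD, n = 3). In two-cell M they were 186 ± 14.1 FPKM in P and 78.3 ± 50.9 FPKM in NP, and all 3 P libraries lay above all 3 NP libraries. Both are descriptions for the reason given above.

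Of the red blood cell markers mainly Hba-a1, an alpha globin gene, was high in the two-cell stages, as Rpp25 was. The 4 of 6 listed red blood cell genes in the table summed to 34.3 to 83.6 FPKM in P of two-cell, 24.3 to 42.5 FPKM in P of two-cell M, 99.6 to 162 FPKM in NP of two-cell and 0 to 52.5 FPKM in NP of two-cell M. In the 24 libraries of the earlier stages the sum stayed at or below 1.292 FPKM. From two-cell to two-cell M its median fell from 44.0 to 30.3 FPKM in P, where the mean of Rpp25 rose from 65.8 to 186 FPKM. In NP the median fell from 131.5 to 51.2 FPKM, where the Rpp25 values of both groups overlapped. Of the defining beta globin genes, Hbb-bt was at 0 in all 12 two-cell and two-cell M libraries and Hbb-bs at 0 in 11, with 0.0304 FPKM in the other. The NP library of two-cell M replicate B had all 4 markers at 0 and Rpp25 at 66.2 FPKM. In zygote M the P library with 1.94 FPKM of Rpp25, replicate B, was also the one with the highest Hba-a1, 1.29 FPKM. The sum of 4 oviduct epithelium markers was also higher in the two-cell stages in P, whereas in NP two-cell overlapped the earlier stages. It was 0.142 to 0.424 FPKM in P of two-cell and 0.350 to 1.018 FPKM in P of two-cell M, against at most 0.0734 FPKM in the earlier P libraries. In NP it was 0.0242 to 4.54 FPKM in two-cell, 2.42 to 7.06 FPKM in two-cell M and at most 1.745 FPKM before. Most of this sum was Epcam, an adhesion molecule of many epithelia, although in P of two-cell replicate C, at the low end, Epcam was at 0 and Foxj1, a factor of ciliated cells, held 0.134 FPKM. Foxj1 was at 0 in all other libraries, and Ovgp1, the oviduct glycoprotein, was at 0 in 10 of the 12 two-cell and two-cell M libraries and at most 0.0945 FPKM in the others. The part of the red blood cell and oviduct signals in the result was not tested.

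The 5 protein-coding genes whose log2 FPKM followed that of Rpp25 most closely over the 36 libraries were Mt1 (Pearson r = 0.945), Trim43a (0.93), Stmn3 (0.926), Obox8 (0.926) and Gm16381 (0.922). Each of these was above 1 FPKM in all 12 libraries of the two-cell stages, and the points share stages, gradients and library depth. For the other subunit genes r with Rpp25 lay between -0.707 for Rpp38 and 0.235 for Rpp14. All r values with Rpp25 include the values that chose it and are given as a description. Among the 9 others, the pair most alike was Pop7 and Rpp21 (r = 0.854), followed by Rpp38 and Pop1 (0.53).

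Pop7, the partner of Rpp25, was the most abundant of the 10 genes. On a scale per kilobase of exon, which allows levels of different genes to be compared, its median over the 18 P libraries was 106.5 FPKM, ahead of Rpp21 with 15.1, Pop5 with 9.32, Rpp14 with 7.39, Rpp38 with 6.79, Pop4 with 4.27, Pop1 with 2.58, Rpp30 with 0.785, Rpp40 with 0.115 and Rpp25 with 0.0656 FPKM. In two-cell M, Rpp25 exceeded Pop7 in every P library on this scale, whereas in MII Pop7 exceeded Rpp25 in every P and NP library. In NP of two-cell M the ranges of Rpp25 (34.6 to 134 FPKM) and Pop7 (0.327 to 192 FPKM) overlapped. The P values of Rpp25 in two-cell M are among those that chose the gene, and no order of genes was tested.

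**Figure D2:**
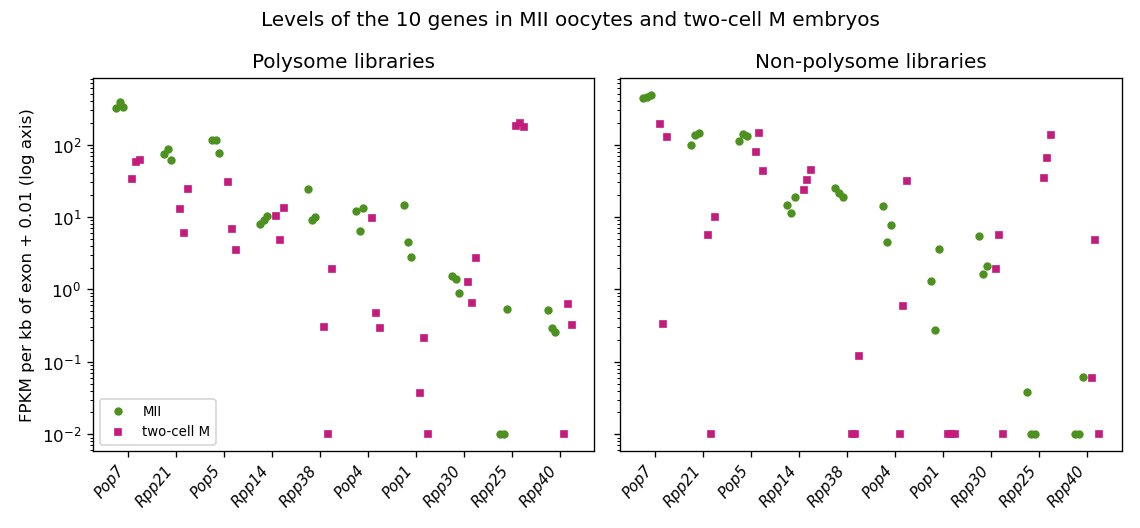
FPKM per kilobase of exon plus 0.01, on a log axis, for the 10 genes in MII (green circles) and two-cell M (magenta squares), with polysome libraries on the left and non-polysome libraries on the right; each point is a library. Rpp25 is near the bottom in MII and between 34.6 and 201.0 FPKM in two-cell M, while Pop7 is the highest gene in MII in both fractions.

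Pop7 (chr5:137501438-137502519, minus strand) was highest in MII, with 319, 384 and 328 FPKM in P and 434, 461 and 479 FPKM in NP. In GV it was 94.6, 160 and 75.7 FPKM in P, in zygote M 98.7, 132 and 73.4 FPKM and in two-cell M 33.5, 57.6 and 62.0 FPKM. The MII values lay above all others of their fraction. In NP of two-cell M replicates A, B and C held 192, 0.337 and 129 FPKM, so that replicate B, with 3 fragments, stood apart from the other two. Pop7 was lower in NP of two-cell M than of MII by 4.50 (SE 1.22, limma adjusted p = 0.002437), and by 1.54 when replicate B of two-cell M was left out, which was still called, although a fit of only these 2 groups did not call it (adjusted p = 0.1935). With all libraries, 61.3% of all genes were called in this comparison, with a median difference of -3.39, a larger fall than 1.54.

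Rpp21, regarded as a subunit of RNase P rather than of RNase MRP (chr17:36255645-36258070, minus strand), had a similar course. It was 48.9, 67.9 and 72.9 FPKM in NP of MII and 2.81, 0.01 and 5.02 FPKM in NP of two-cell M, a difference of -6.90 (SE 1.23, limma adjusted p = 2.686e-05) that was called whichever library was left out, with -4.05 without replicate B of two-cell M, but not in a fit of only these 2 groups (adjusted p = 0.06972). In P of MII it was 37.1, 43.9 and 31.2 FPKM, in P of Zyg 3.02, 2.59 and 3.02 FPKM and in P of zygote M 8.92, 9.499 and 7.84 FPKM. The P values of MII lay above all other P libraries. In NP it also fell from two-cell to two-cell M by 3.16 (limma adjusted p = 0.04423), and in two-cell M it was higher in P than in NP by 3.56 (adjusted p = 0.04932). Without replicate B of NP two-cell M, where Rpp21 had 0 fragments, the values were -0.31 (adjusted p = 0.768) for the first and 0.71 (adjusted p = 0.515) for the second. The first was also lost without replicate A or B of NP two-cell, and the second without replicate A or C of P two-cell M.

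Rpp38, a subunit of both enzymes that binds kink-turn RNA (chr2:3328949-3332644, minus strand), was called most often, in 7 comparisons and each time lower. In P of GV it was 14.2, 6.94 and 24.3 FPKM, in MII 6.90, 2.57 and 2.82 FPKM and in Zyg 5.79, 7.57 and 7.52 FPKM. From zygote M on it was low, with 0.0356, 0.138 and 0.394 FPKM in zygote M, 1.28, 0.0229 and 0.01 FPKM in two-cell and 0.0935, 0.01 and 0.546 FPKM in two-cell M. The 9 P libraries of GV, MII and Zyg thus all lay above the 9 of the later stages.

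In NP the fall of Rpp38 had the same order. GV held 6.497, 3.98 and 5.63 FPKM, MII 7.02, 6.09 and 5.37 FPKM and Zyg 3.87, 6.12 and 3.58 FPKM. In zygote M replicates A, B and C held 0.01, 5.28 and 0.01 FPKM, so replicate B remained within the range of the earlier stages. The 6 NP libraries of two-cell and two-cell M held at most 0.0713 FPKM.

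Rpp38 fell from GV to two-cell in P, with a difference of -7.66 (SE 1.73, limma adjusted p = 0.002579), and in NP, with -7.22 (SE 1.73, limma adjusted p = 0.002298). From MII to two-cell M it fell by 5.53 in P (adjusted p = 0.008967) and by 8.57 in NP (adjusted p = 0.0001265), the latter a depth-scaled ratio of fragments of 430.7 with a 95% interval of 119.1 to 3560. The calls in NP of two-cell against GV and of two-cell M against MII, and in P of two-cell against GV, held when any one library of the groups was left out. That in P of two-cell M against MII was lost without replicate B of two-cell M (-4.03, adjusted p = 0.07496) and with quantile normalization (-3.30, adjusted p = 0.08879). From Zyg to zygote M the fall was 5.79 in P (adjusted p = 0.04343) and 5.76 in NP (adjusted p = 0.03075), and each of these was called after only 1 of the 6 omissions. Zygote M was lower than MII by 6.24 in NP (adjusted p = 0.01037), a call lost without replicate A or C of zygote M. In P the value was -4.89 (adjusted p = 0.06334).

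Rpp14 and Pop5, related small subunits of the protein core, were low in NP of GV. Rpp14 (chr14:8080367-8091835, plus strand) was 1.12, 0.01 and 1.10 FPKM in NP of GV, 3.09, 2.38 and 3.90 FPKM in MII, 2.40, 2.98 and 2.85 FPKM in Zyg and 4.26, 2.26 and 2.18 FPKM in two-cell. All NP libraries of these later stages lay above those of GV. Relative to GV it was higher in MII by 3.73 (limma adjusted p = 0.01467), in Zyg by 3.57 (adjusted p = 0.02276) and in two-cell by 3.58 (adjusted p = 0.01128). Replicate B of GV, with 0 fragments, stood apart from the other GV libraries. Without it the difference was 1.47 for MII (adjusted p = 0.212), 1.30 for Zyg (adjusted p = 0.317) and 1.32 for two-cell (adjusted p = 0.1697). The call of Zyg was also lost without any of its own 3 libraries, and that of MII without its replicate C. The highest NP values of Rpp14, 5.00, 6.77 and 9.28 FPKM, were those of two-cell M.

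Pop5 (chr5:115235836-115245352, plus strand) peaked in MII in P, whereas in NP its values in MII and two-cell M overlapped. In P it was 2.29, 6.78 and 1.33 FPKM in GV, 28.3, 27.9 and 18.5 FPKM in MII, 2.75, 3.04 and 3.51 FPKM in Zyg and 1.18, 0.962 and 0.865 FPKM in zygote M. In NP it was 0.916, 0.0237 and 1.87 FPKM in GV, 27.0, 34.0 and 31.4 FPKM in MII and 1.77, 0.911 and 0.0144 FPKM in zygote M. The MII libraries lay above those of GV and zygote M in both fractions. Markers of cumulus or granulosa cells were also higher in MII, where Pop7, Rpp21 and, in P, Pop5 peaked. The 7 of 8 listed genes in the table summed to 0.709 to 4.66 FPKM in P of MII, against at most 0.157 FPKM in the P libraries of GV, Zyg, zygote M and two-cell, and 2.99 FPKM in 1 library of two-cell M. In NP the sum was 0.0679 to 23.5 FPKM in MII and at most 20.06 FPKM at other stages. In MII most of it was Inha, an inhibin subunit, while Amh, Foxl2, Has2 and Tnfaip6 were at 0 in all 6 libraries. The part of this signal in the MII values was not tested.

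Pop5 rose from GV to MII in NP by 6.48 (SE 1.498, limma adjusted p = 0.003161), and by 4.55 without replicate B of GV (adjusted p = 0.0505). In NP the difference of zygote M from MII was -6.75 (adjusted p = 0.001523), called after each omission, with -4.59 without replicate C of zygote M. The P difference between the same stages was -4.62 (adjusted p = 0.04024), which lost its call whichever of the 6 libraries was left out, with adjusted p from 0.08098 to 0.1124. In P the change from GV to MII was 3.15 (adjusted p = 0.2597). In NP of two-cell Pop5 was 1.20, 0.0417 and 5.57 FPKM and in two-cell M 19.3, 34.9 and 10.3 FPKM, higher by 4.87 (adjusted p = 0.01197), or by 2.88 without replicate B of two-cell (adjusted p = 0.1318).

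Pop1, the largest protein of the complex (chr15:34495304-34530649, plus strand), fell in M-phase embryos relative to MII. In P it was 1.56, 0.489 and 0.314 FPKM in MII, 0.0702, 0.01 and 0.0111 FPKM in zygote M and 0.0129, 0.0316 and 0.01 FPKM in two-cell M, with no overlap between MII and either. Pop1 was lower by 4.97 in zygote M (SE 1.54, limma adjusted p = 0.03181) and by 5.28 in two-cell M (SE 1.54, limma adjusted p = 0.005527), although in two-cell M the value was -0.957 with quantile normalization (adjusted p = 0.5422). The first of these calls was lost without any of 4 libraries, replicates A and B of MII and B and C of zygote M. In NP the 3 libraries of two-cell M held 0 fragments of Pop1 and those of MII 0.150, 0.0387 and 0.396 FPKM, at least 78.9-fold more by fragments. The NP difference was -3.72 (adjusted p = 0.03853), it turned to 0.092 with quantile normalization, and its call was lost when any library other than MII replicate B was left out.

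Pop4 (chr7:38261996-38271424, minus strand) and Rpp30 (chr19:36083716-36104773, plus strand), which are subunits of both enzymes, were called in 0 of the 20 comparisons of stages or fractions by limma, with 3 and 0 of them at an unadjusted p under 0.05. A limma fit of the P libraries alone called Pop4 in Zyg minus GV (4.32, adjusted p = 0.02518) and two-cell M minus MII (-3.14, adjusted p = 0.03086). It called Rpp30 in zygote M minus MII (-2.85, adjusted p = 0.04342) and two-cell M minus two-cell (3.26, adjusted p = 0.0113). Over all genes 28.9% of tests were called in that fit. The fit of the NP libraries alone called neither gene. In P, Pop4 was 3.86, 7.003 and 6.81 FPKM in Zyg, which overlapped MII (1.91 to 4.02 FPKM) and lay above the GV values of 0.514, 0.0466 and 0.969 FPKM. Libraries of a group could differ widely, as in NP of two-cell with 0.0155, 10.4 and 0.0151 FPKM. Rpp30 was 0.0392, 0.0123 and 0.0927 FPKM in P of zygote M, 0.01, 0.0145 and 0.152 FPKM in two-cell and 0.257, 0.139 and 0.540 FPKM in two-cell M. Exons of Pop4 share 12 bases with the opposite-strand gene Gm44767, and strand-specific counting is not stated.

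Rpp40, a further protein of the complex (chr13:35893472-35906360, minus strand), was too low for the test and is described by fragments. In P it had 65, 39 and 34 fragments in MII and 44, 53 and 34 in Zyg, 0, 0 and 1 in GV, and 0 in each library of zygote M. Scaled by depth, MII was at least 50.3-fold and Zyg at least 44.1-fold above zygote M. In NP it was at 0 in all libraries of GV, Zyg and zygote M, and two-cell M replicate B held 265 fragments, against 4 and 0 in A and C. Rpp40 shares 80 exon bases with the opposite-strand gene Gm48746.

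**Figure D3:**
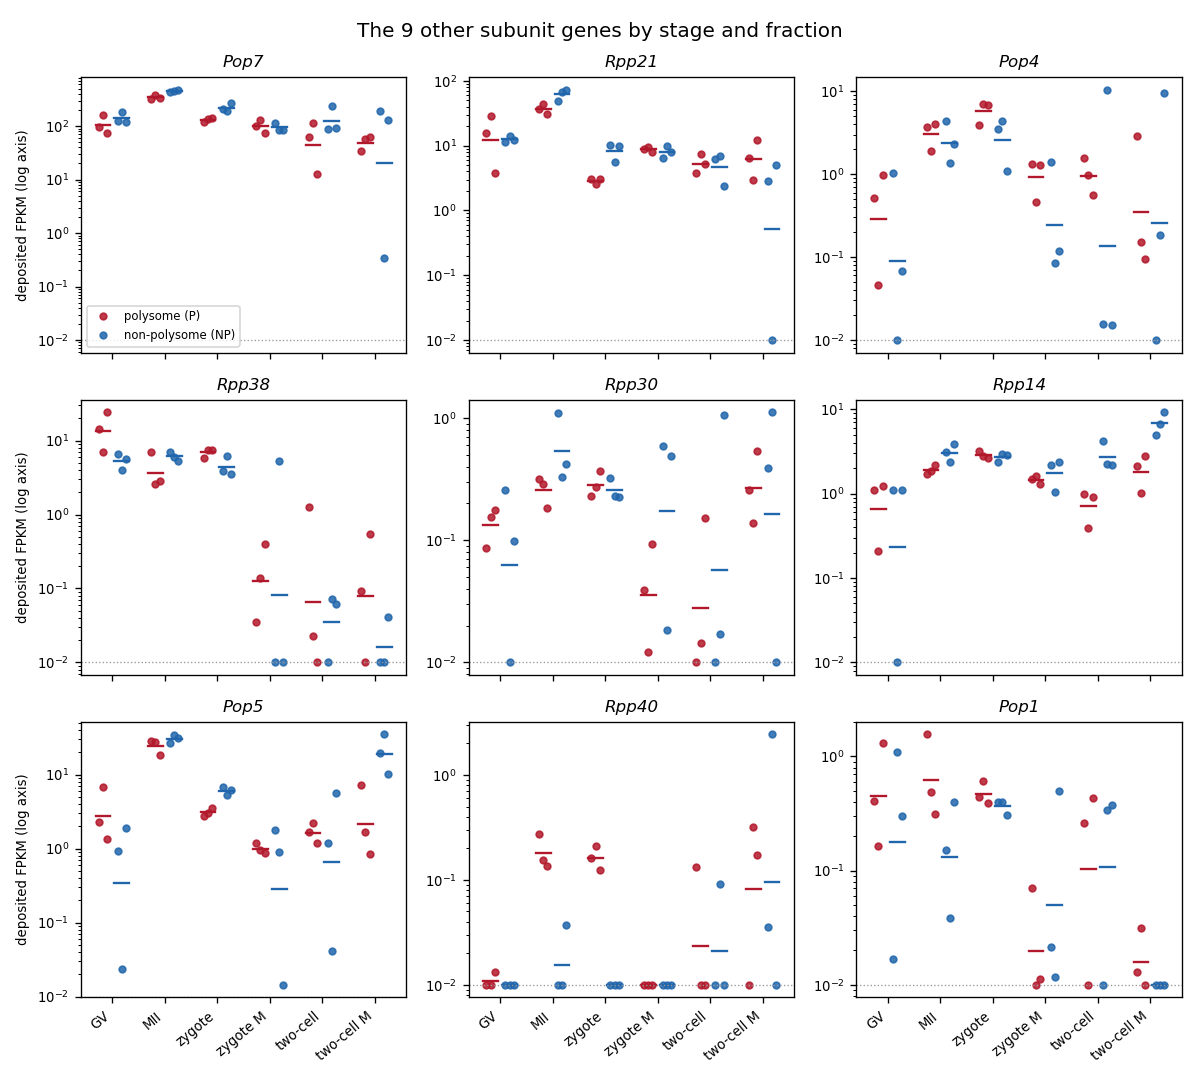
Deposited FPKM of the other 9 subunit genes by stage on log axes, with a panel for each gene, polysome libraries in red and non-polysome libraries in blue. Points are libraries and bars geometric means of 3 libraries, and the dotted line is the offset of 0.01 FPKM. Pop7, Rpp21 and Pop5 are highest in MII in P, and Rpp38 drops after the zygote.

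Counted over the 7 stage comparisons in P, 6 of 60 tests of the subunit genes were called, all lower, and 13 had an unadjusted p under 0.05. The 60 include tests of Rpp25 between earlier stages, where it stood near the offset, and 0 of the 6 calls were of Rpp25. Over all 7967 tested genes 19.4% of such tests were called, 4.59% higher and 14.8% lower, so the share of the subunit genes was not above it in either direction. By comparison, 0 of 9 genes were called in Zyg minus GV (background 5.61%), 1 of 8 in two-cell minus GV (16.7%), 2 of 9 in zygote M minus MII (12.4%), 2 of 8 in two-cell M minus MII (53%), 0 of 9 in MII minus GV (6.11%), 1 of 9 in zygote M minus Zyg (5.75%) and 0 of 8 in two-cell M minus two-cell (36.3%). The median difference of two-cell M from MII was -2.97 over the 8 genes and -2.64 over all genes. A fit of the 18 P libraries alone called 20 of 60, against 28.9% over all genes in that fit, among them Pop7 in two-cell M minus MII (-2.80, adjusted p = 0.0007175) and Pop5 in MII minus GV (3.15, adjusted p = 0.007027).

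In NP, 16 of 63 tests were called, 7 higher and 9 lower, against 26.8% over all genes, and 24 had an unadjusted p under 0.05. Of the 16 calls 2 are those of Rpp25, which are descriptions, and without Rpp25 14 of 56 were called, 5 higher and 9 lower. Over all genes 8.03% of these tests were called higher and 18.8% lower. A fit of the 18 NP libraries alone called 9 of 63, against 19.1% over all genes in that fit. The called genes were 1 of 9 in Zyg minus GV (background 13.9%), 3 of 9 in two-cell minus GV (29.7%), 2 of 9 in zygote M minus MII (19.8%), 5 of 9 in two-cell M minus MII (61.3%), 2 of 9 in MII minus GV (16.6%), 1 of 9 in zygote M minus Zyg (10.4%) and 2 of 9 in two-cell M minus two-cell (36.1%). The counts for two-cell minus GV and for two-cell M minus MII each include the call of Rpp25, which is a description. For two-cell M minus MII the median difference was -3.21 over the 9 genes, Rpp25 included, and -3.39 over all genes. The 3 values of a group lay wholly above or below those of the other in 33 of 60 pairs in P (background 52.6%) and 31 of 63 in NP (42.8%). The NP pairs include Rpp25 in two-cell minus GV and two-cell M minus MII, which were apart because of how the gene was chosen. The P share, 55.0%, was close to that of all genes, whereas the NP share, 49.2%, holds these pairs and is given as a description.

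**Figure D4:**
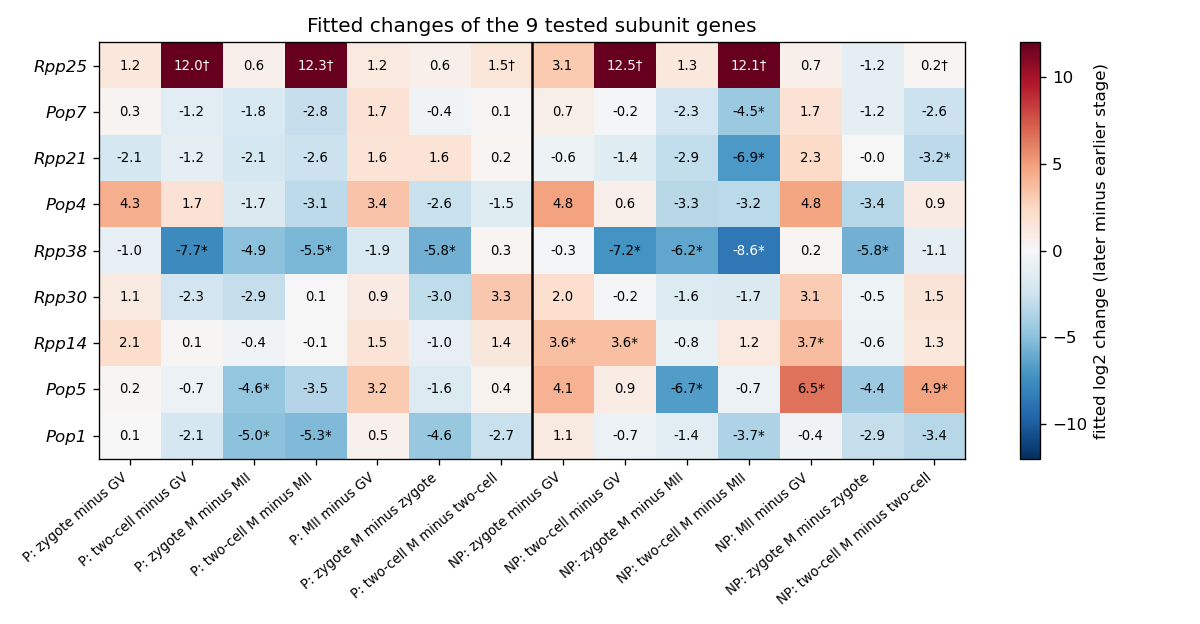
Fitted log2 differences of the subunit genes in the stage comparisons, with P and NP comparisons as columns and genes as rows. A star marks a difference that was called and a dagger one of Rpp25 with a two-cell group, given as a description. Rpp25 reaches 12.53 in NP of two-cell minus GV, and Rpp38 falls to -8.57 in NP of two-cell M minus MII.

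Between the fractions of a stage, 1 of 52 tests was called, that of Rpp21 in two-cell M described above, with 2 at an unadjusted p under 0.05 and 6.64% called over all genes. Of the tested genes, 0 were called in GV (background 4.96%), MII (0.753%), Zyg (1.38%), zygote M (1.92%) and two-cell (16.1%), and 1 of 8 in two-cell M (14.8%). The P and NP values did not overlap in 11 of 52 pairs (21.2%, background 31%). Whether a change in P differed from the same change in NP was tested directly, and 0 of 60 such tests were called by limma (background 1.74%), with 3 at an unadjusted p under 0.05 and a lowest adjusted p of 0.217, that of Rpp21 in two-cell M against MII. The change from interphase to M-phase in P was also compared between divisions, and 1 of 25 tests was called (background 18.9%), that of Rpp30. Its change from two-cell to two-cell M exceeded that from Zyg to zygote M by 6.27 (SE 2.26, limma adjusted p = 0.04373), and the call held after 3 of 12 omissions of a library.

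The RNAs and the paralog belonging to these enzymes were taken from a separate list. Rpph1, the RNA of RNase P, was 0.676, 1.86 and 0.263 FPKM in P of GV, 0.01 FPKM in all 3 P libraries of MII, and 0.306, 1.20 and 1.91 FPKM in P of zygote M. In P of two-cell it was 8.10, 27.0 and 10.4 FPKM and in P of two-cell M 54.4, 41.9 and 12.8 FPKM, both above every P library of the 4 earlier stages. In P, Rpph1 was higher in two-cell than in GV by 4.25 (limma adjusted p = 0.01476), a call lost without replicate C of GV or B of two-cell. The MII libraries of P held 0 fragments, so differences from MII depend on the offset. GV, zygote M and two-cell M were at least 5.65-fold, 7.62-fold and 261-fold above MII against a floor of 3 fragments over the group. All 3 differences were called on the deposited scale (adjusted p = 0.001292, 0.0004134 and 1.112e-08), but with 1 FPKM added only that of two-cell M was (4.99, against 1.01 for zygote M and -0.85 for MII minus GV).

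In NP, Rpph1 was 0.01, 0.556 and 0.164 FPKM in GV and 0.764, 2.68 and 4.001 FPKM in Zyg, with no overlap. It was higher in Zyg than in GV by 4.38 (limma adjusted p = 0.01443), a call lost without replicate A of GV or replicate C or D of Zyg. In zygote M it was 0.292, 0.570 and 0.848 FPKM, which overlapped both GV and Zyg. In two-cell it was 4.76, 12.1 and 3.74 FPKM and in two-cell M 6.43, 8.48 and 2.98 FPKM, and both groups overlapped Zyg. The differences were 5.95 for two-cell against GV (adjusted p = 0.0004461) and 7.49 for two-cell M against MII (adjusted p = 7.171e-06), called after each omission of a library. Rpph1 is a short RNA without a poly(A) tail, and the libraries were primed on poly(A), so its level is that of the RNA that was captured. Rmrp, the RNA of RNase MRP, was at or below 0.961 FPKM in all 36 libraries and was not tested.

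Rpp25l, a paralog of Rpp25 with the same RNA-binding domain, was lower in two-cell M than at any other stage in both fractions. In P it was 106, 181 and 81.7 FPKM in GV, 338, 315 and 255 FPKM in MII, 53.9, 125 and 44.6 FPKM in two-cell and 15.3, 0.01 and 25.5 FPKM in two-cell M. In NP of two-cell M it was 0.228, 0.167 and 47.4 FPKM, with replicate C apart from A and B. From MII to two-cell M it fell by 7.58 in P (limma adjusted p = 0.0006813) and by 7.72 in NP (adjusted p = 0.0004163), and from two-cell to two-cell M by 5.41 in P (adjusted p = 0.01618) and by 5.76 in NP (adjusted p = 0.0104). Replicate B of two-cell M in P held 0 fragments of Rpp25l. Leaving it out gave -3.93 for two-cell M minus MII in P (limma adjusted p = 0.00883). For two-cell M minus two-cell in P it gave -1.76 (limma adjusted p = 0.2807), so this call was lost, as it was without replicate B of two-cell. The NP call against two-cell was lost without replicate A or B of two-cell M, and both calls against MII held after each omission.

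Per kilobase of exon, Rpp25l was 94.5, 219 and 78.2 FPKM in P of two-cell, above Rpp25 in each library, and 26.9, 0 and 44.8 FPKM in P of two-cell M, below Rpp25 in each. In NP of two-cell M it was 0.383, 0.275 and 83.2 FPKM, also below Rpp25 in each library, although the ranges of both genes overlapped. These levels are given as a description.

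**Figure D5:**
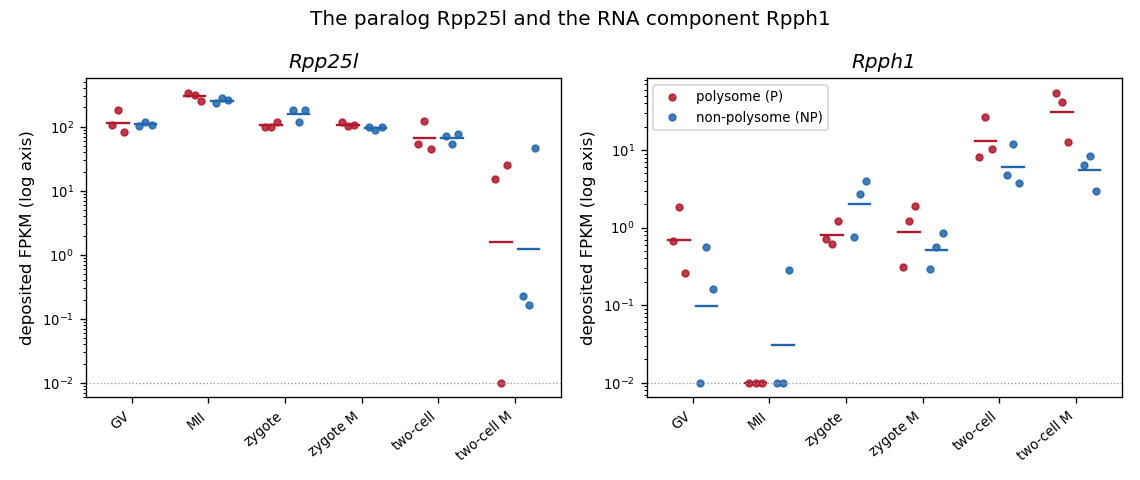
Deposited FPKM of the paralog Rpp25l and of Rpph1, the RNA of RNase P, by stage on log axes, with polysome libraries in red and non-polysome libraries in blue; points are libraries, bars geometric means and the dotted line the offset of 0.01 FPKM. Rpp25l is highest in MII and Rpph1 is highest in P of two-cell M.

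Of 31 other genes of tRNA and ribosomal RNA processing in 4 lists, 22 passed the minimum. In P, 24 of their 154 tests were called (15.6%, background 19.4%), 8 higher and 16 lower, and in NP 37 of 154 (24.0%, background 26.8%), 19 higher and 18 lower. Among the genes of tRNA 3′ end processing and splicing, 0 of 63 tests in P were higher (background 4.59%) and 6 were lower, a share of 9.52% against 14.8% over all genes. Elac2, which removes the 3′ trailer of precursor tRNAs, fell from MII to two-cell M in P, with a difference of -4.92 (limma adjusted p = 0.01153), and in NP, with -8.96 (adjusted p = 2.798e-05). All 3 NP libraries of two-cell M stood at the offset of 0.01 FPKM, so the size of the NP difference depends on it. The P call was lost without replicate A of two-cell M (-2.43, adjusted p = 0.1808). Ssb, the La protein that binds the 3′ end of new precursor tRNAs, fell from GV to two-cell in P by 6.34 (adjusted p = 0.001154).

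In the list of ribosomal RNA spacer processing, 5 of 56 tests in P were higher and 6 lower, together 19.6% (background 19.4%). Here 4 of 8 genes, Bop1, Fcf1, Xrn2 and Nob1, rose from two-cell to two-cell M in P, by 4.10 (limma adjusted p = 0.008026), 2.60 (adjusted p = 0.03435), 3.09 (adjusted p = 0.02243) and 5.85 (adjusted p = 0.02825). Over all genes 8.13% were called higher in this comparison and 36.3% in either direction. The list was chosen with earlier results of these data known, so the count of 4 is given as a description. These calls were lost after 1, 3, 3 and 4 of 6 omissions of a library, that of Bop1 without replicate A of two-cell. Bop1, a factor of large ribosomal subunit assembly, had a mean of 0.652 ± 0.448 FPKM in P of two-cell and 9.34 ± 3.94 FPKM in P of two-cell M (SD, n = 3). Of the 3 proteins of the mitochondrial RNase P, which needs no RNA, 1 test of 21 in P was called (4.76%, background 19.4%). It was the fall of 1110008L16Rik from MII to two-cell M by 3.86 (limma adjusted p = 0.00776), lost without replicate A of two-cell M. Over all genes 53% were called in that comparison, with a median difference of -2.64. In NP 5 of 21 were called (23.8%, background 26.8%), 2 higher and 3 lower. From MII to two-cell M in NP, Trmt10c, its methyltransferase subunit, rose by 7.04 (limma adjusted p = 0.005488), called after each omission. In the same comparison Hsd17b10, its dehydrogenase subunit, fell by 6.0 (limma adjusted p = 0.02643) and 1110008L16Rik by 3.07 (limma adjusted p = 0.02642), and each of these calls was lost after 3 of 6 omissions. Over all genes 61.3% were called there, with a median difference of -3.39, a larger fall than that of 1110008L16Rik.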

How the data were processed

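Oocytes and embryos of 6 stages were profiled by polysome fractionation and RNA sequencing. Per the labels and methods, the authors amplified RNA with SMART-seq v4, trimmed reads with Trim Galore 0.4.1, mapped them to GRCm38 with STAR 2.5.3a, and deposited normalized FPKM values with 0.01 as the smallest; their own tests in Partek were not used. Of 38 samples, 36 had a column in the table, and 2 zygote samples had none and were left out.

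The deposited FPKM is per kilobase of the whole gene span, introns included: with this length 84.6% to 90.0% of low values per library were whole fragments within 0.05, against 9.16% to 11.0% with exon length. Fragments and depth were recovered on this basis, and levels were compared between genes only after rescaling to exon length (GENCODE).

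The model was limma (version 3.58.1, R 4.3.3) on log2 of the deposited FPKM, with a mean for each of 12 groups of the 36 libraries, empirical Bayes moderation, a trend and Benjamini-Hochberg adjustment over the 7967 genes tested. Tests are two-sided. The median residual SD was 1.6 on the log2 scale. With 3 libraries against 3 an exact permutation test cannot give a p under 0.1, so none was used for single genes. The replicates are biological triplicates per the series description, and nothing in the labels ties same letters of different stages to one another.

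All 10 subunit genes are named, the 5 protein-coding genes most correlated with Rpp25, and genes of the pathway lists. The members and lists were chosen with earlier results of these data known. The 3 sperm markers in the table summed to at most 6.29 FPKM in any library, and to 0 in P of two-cell M and in NP of two-cell and two-cell M. The fit was also run on simulated data, whose outcome is not given and is not used here. Alternatives were other pseudocounts, other minimums, quantile normalization, fits of fewer libraries, replicate blocks, omission of each library and, chosen after seeing the data, depth-scaled fragments with 0.5 fragment added, and omissions and pseudocounts for the named genes outside the 10.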

Additional observations from a re-analysis of the deposited data

Results flagged for a closer look

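One result was singled out because an effect differed between divisions. For Rpp30 the change from interphase to M-phase in polysomes was higher in the two-cell embryo than in the zygote by 6.27 on the log2 scale (limma adjusted p = 0.04373), in the zygote from 0.232, 0.274 and 0.365 FPKM to 0.0392, 0.0123 and 0.0927 FPKM and in the two-cell embryo from 0.01, 0.0145 and 0.152 FPKM to 0.257, 0.139 and 0.540 FPKM. The groups do not overlap within the zygote and overlap in the two-cell embryo. All of these are low values, with 0 to 174 fragments per library, and the call held in 4 of 19 alternatives and omissions. The difference fell to 2.79 with 0.1 FPKM added (adjusted p = 0.05932) and to 0.6 with 1 FPKM added (adjusted p = 0.1788), and was 8.48 on depth-scaled fragments (adjusted p = 0.05669).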

How the results depend on the processing

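Of the 60 tests in P, 63 in NP, 52 between fractions, 60 of a difference between fractions and 25 of a difference between divisions, 6, 16, 1, 0 and 1 were called. Apart from omissions of a library, the count under each alternative is followed by the share called over all genes in that fit. In P the count was 11 (24.1%) with 0.1 FPKM added, 15 (23.1%) with 1 FPKM added, 12 (26.7%) with quantile normalization, 22 (31.8%) when only the 2 groups compared were fitted, 20 (28.9%) when only the P libraries were, and 3 of 67 tests (9.74%) with no minimum, which adds Rpp40. In NP it was 9 (19.1%) when only the NP libraries were fitted. Between fractions it was 3 (8.05%) with 1 FPKM added, 0 of 58 (2.89%) with no minimum, 0 (7.14%) with quantile normalization, 0 (6.22%) on depth-scaled fragments and 0 of 58 (3.94%) on that scale with at least 10 fragments, both chosen after seeing the data. For a difference between fractions it was 1 (2.53%) with 1 FPKM added. For divisions it was 2 (23.6%) with 0.1 FPKM added, 6 (25.3%) with 1 FPKM added, 4 (28.2%) with quantile normalization and 0 (17.5%) on depth-scaled fragments. A mean of at least 1 FPKM leaves 19 division tests without Rpp30, the gene called, so its 0 (22.6%) says nothing of that call. With at least 10 fragments 2 of 28 were called (10.8%), both of Rpp40, which is not among the 25, and Rpp30 was not (8.48, limma adjusted p = 0.075). Omitting 1 library gave 3 to 7 calls in P, 13 to 18 in NP, 0 to 2 between fractions, 0 to 1 for their difference and 0 to 2 for divisions. The lowest count in P followed omission of MII replicate A or B or zygote M replicate B. For these omissions the share over all genes is not given, so the ranges were not set against it. The cause of these differences was not tested.

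With the replicate block (the letter as a block) 5 calls were made in P (18.7% over all genes in that fit) and 14 in NP (25.5%). Between fractions 0 were made (6.43%) and for divisions 0 (17.6%). A block by gradient gave 1 between fractions (6.45%). The cause of their change from the main fit was not tested. Libraries of the same letter and fraction at different stages had a mean residual correlation of 0.0205 in P (highest 0.157) and 0.0176 in NP (highest 0.125). P and NP of the same gradient had a mean of 0.0756 over 18 pairs, over 0.1 in 6. Since these linked pairs were also low, the measure cannot decide whether libraries of the same letter share a batch.

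Of the single called differences, that of Pop1 in NP of two-cell M against MII reversed to 0.092 with quantile normalization, which moves the median of all genes in that comparison from -3.39 to -0.04. The fold change of a gene at the offset depends on that offset. Depth, lowest in NP of two-cell M, limits what 0 fragments can exclude.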
